A study of Mus musculus with 30 samples.

Results

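Cd63, Gstm5, Ddah1, Hdac6, Ptprf, Dgat2 and Ddx43 are 7 genes whose signal was higher after loss of Rnf2 in mouse primordial germ cells of both sexes and at both embryonic stages at which the mutant was sampled. They were selected on the measured difference between Rnf2delta and control at E11.5 and E12.5 among 15180 genes tested, so that difference is given as a description and without a test. Each gene was found by its symbol in the probe annotation, and each had a single probe set, a group of short probes read as 1 signal (10367436 for Cd63, 10495243 for Gstm5, 10496727 for Ddah1, 10603387 for Hdac6, 10515613 for Ptprf, 10565775 for Dgat2 and 10587350 for Ddx43). All 7 passed the filter on dim genes, and each was above the 40th percentile of its array on all 30 arrays. In assembly GRCm38.p6 Gstm5 and Ddah1 lie on chromosome 3, Ptprf on 4, Dgat2 on 7, Ddx43 on 9, Cd63 on 10 and Hdac6 on X.

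The arrays form 10 groups of 3. Germ cells labelled Ring1+;Rnf2delta, called Rnf2delta here, were taken at E11.5 and E12.5 from females and males, and germ cells labelled Ring1+;Rnf2+, called control here, at E11.5, E12.5 and E13.5 from females and males. All embryos had a mixed genetic background of 129/Sv and C57BL6J and carried an Oct4(deltaPE)-GFP transgene, a reporter of germ cells by which the cells were sorted from dissociated gonads, and all carried the Ring1+ genotype. The labels do not say how or when Rnf2 was deleted, or whether each Rnf2delta cell had lost it. They also leave out whether the replicates of a group are different embryos or litters, so p-values speak only of the spread of these samples, and that spread may be technical. The RNA of 500 cells per sample was amplified before labelling, and the series asked how PRC1 sets the time at which female germ cells enter their sexual differentiation.

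Rnf2 and Ring1 encode the alternative ubiquitin ligases of Polycomb repressive complex 1 (PRC1), which marks histone H2A with ubiquitin and keeps developmental genes silent. Primordial germ cells are the embryonic precursors of eggs and sperm. On the days sampled here they have settled in the gonad, after which female cells enter meiosis and male cells stop dividing and turn to the spermatogenic path. The 7 genes belong to no single pathway. Cd63 is a tetraspanin, a membrane protein of late endosomes, lysosomes and secreted vesicles, and Ptprf is a receptor-type tyrosine phosphatase of the LAR family that acts in cell adhesion. Gstm5 is a mu class glutathione transferase, Ddah1 breaks down asymmetric dimethylarginine, an inhibitor of nitric oxide synthases, and Dgat2 makes triglyceride from diacylglycerol. Hdac6 is a mainly cytoplasmic deacetylase of tubulin and other proteins. Ddx43 is a DEAD-box RNA helicase known in humans as an antigen shared by testis and tumours.

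Promoter sequences were looked up because PRC1 is known to be drawn to promoters rich in CG dinucleotides and because some PRC1 forms carry factors that bind the E-box, E2F and T-box motifs. Of the 7 genes, 6 had an entry in the RefSeq promoter table of GRCm38.p6, and Dgat2 had none there. The window was the 250 bases before the annotated start, and motifs were searched on both strands. The E-box CACGTG was in 0 of the 6 windows and in 6.02% of all 32851 promoters. The E2F core GGCGGGA was in 1 of the 6, that of Hdac6, and in 9.75% of all promoters, and the T-box element GGTGTGA was in 1 of the 6, that of Gstm5, and in 3.33% of all. In the Hdac6 window (chrX:7947890-7948139, minus strand) the match, in capitals, lies on the gene's own strand, 10 to 4 bases before the start. In the Gstm5 window (chr3:107895604-107895853, plus strand) the match, in capitals, lies on the opposite strand, 94 to 88 bases before the start. Both are printed 5′ to 3′ along the gene.
Hdac6: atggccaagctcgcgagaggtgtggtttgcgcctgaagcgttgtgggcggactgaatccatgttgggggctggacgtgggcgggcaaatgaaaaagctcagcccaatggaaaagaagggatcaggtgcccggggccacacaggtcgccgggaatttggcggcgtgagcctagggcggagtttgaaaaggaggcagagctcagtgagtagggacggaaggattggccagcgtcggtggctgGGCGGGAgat
Gstm5: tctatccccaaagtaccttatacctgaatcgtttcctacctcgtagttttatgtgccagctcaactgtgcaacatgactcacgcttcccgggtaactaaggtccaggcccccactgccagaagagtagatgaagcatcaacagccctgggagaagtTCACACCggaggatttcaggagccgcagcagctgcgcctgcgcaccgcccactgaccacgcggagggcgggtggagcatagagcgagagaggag
The windows held 6 CG dinucleotides for Cd63, 13 for Gstm5, 17 for Ddah1, 17 for Hdac6, 18 for Ptprf and 20 for Ddx43, against a median of 6 over all promoters. As many CG or more were found in 50.4% of all promoters for Cd63, in 31.5% for Gstm5, in 23.5% for Ddah1 and Hdac6, in 21.7% for Ptprf and in 17.9% for Ddx43. So 1 of the 6 windows, that of Cd63, sat at the median and the other 5 above it. The highest and the lowest of the 6 are printed with each CG in capitals, Ddx43 from chr9:78395527-78395776 and Cd63 from chr10:128909095-128909344, both on the plus strand.
Ddx43: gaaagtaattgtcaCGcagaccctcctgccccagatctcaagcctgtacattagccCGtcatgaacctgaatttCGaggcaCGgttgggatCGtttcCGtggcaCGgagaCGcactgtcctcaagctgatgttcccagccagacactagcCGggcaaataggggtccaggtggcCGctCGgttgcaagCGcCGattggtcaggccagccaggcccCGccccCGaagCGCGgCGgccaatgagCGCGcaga
Cd63: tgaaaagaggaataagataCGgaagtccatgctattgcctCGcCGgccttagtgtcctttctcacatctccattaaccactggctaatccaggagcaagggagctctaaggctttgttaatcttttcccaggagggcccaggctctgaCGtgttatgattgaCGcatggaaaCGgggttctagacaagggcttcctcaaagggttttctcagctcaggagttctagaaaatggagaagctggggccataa
These letter matches are a description of the windows, and no binding was measured.

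Signals are on the log2 scale as deposited, and a difference of 1 on it is a doubling. Array medians lay between 2.52 and 2.66. The 6 E12.5 female arrays, of both genotypes, stood apart from the rest: their mean correlation with the other arrays of their own group was 0.964 to 0.978, against 0.983 to 0.990 for the other 24, and the interquartile range of their signals relative to the gene medians was 0.361 to 0.533, against 0.248 to 0.390. Germ cell markers were well expressed on every array (11 of 11 measured, mean level between 6.76 and 7.26). Markers of gonadal somatic and blood cells lay low on average. The mean level per array was 2.32 to 3.01 for supporting cells (12 of 12 measured) and 2.27 to 2.55 for interstitial and mesenchymal cells (9 of 11). It was 1.94 to 2.28 for steroidogenic cells (5 of 6) and 2.46 to 2.81 for endothelial cells (8 of 8). For macrophages it was 2.03 to 2.50 (8 of 8). Such means can hide single expressed markers. The log2 of the summed signal was 6.62 to 7.69 for endothelial cells, 5.96 to 6.73 for supporting cells and 10.89 to 11.43 for germ cells. Cyp11a1, Cyp17a1, Emcn, Sox17, Adgre1 and Ptprc were below the 40th percentile on all arrays. Erythroid markers (4 of 8 measured) averaged 2.11 to 2.83 except on Rnf2delta E12.5 male replicate 3, at 4.75. Without that array the median difference of the 7 genes between Rnf2delta and control E12.5 males was 1.52, against 1.60 with it. By limma with Benjamini-Hochberg adjustment no somatic or blood marker was higher in Rnf2delta in any of the 4 comparisons, and 1 endothelial marker was lower in each sex at E12.5. Among the germ cell markers 1 was higher in each comparison except that of E11.5 females, and 4 were lower in E12.5 females. Since these are bulk samples, fewer cells of a type and less RNA per cell cannot be told apart.

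The Rnf2 signal was lower on the Rnf2delta arrays by 0.61 at E11.5 in females and 0.31 in males (SE 0.19, limma adjusted p = 0.20 and 0.80), neither past the threshold of 0.05. At E12.5 it fell by 0.63 in females (adjusted p = 0.029) and by 1.03 in males (adjusted p = 0.0022). The female call ended with array weights, with only the 2 groups in the fit and without control E12.5 female replicate 1, Rnf2delta E12.5 female replicate 1 or Rnf2delta E12.5 female replicate 3, where the adjusted p reached 0.36. Whether the Rnf2 probe set covers the deleted part is not known, and if it does not, it checks nothing. Ring1 differed by 0.04 and -0.13 at E11.5 and by -0.10 and -0.33 at E12.5 in females and males, with no adjusted p under 0.05 (lowest 0.52).

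Across the 4 genotype comparisons the median difference of the 7 genes was 1.61 (females) and 1.39 (males) at E11.5 and 1.91 (females) and 1.60 (males) at E12.5, where the medians of all genes tested were 0.02, -0.002, 0.046 and 0.008. In each comparison all 7 had the 3 Rnf2delta arrays above the 3 control arrays, as did 9.71%, 8.74%, 11.9% and 8.64% of all genes in the same order. Past the limma threshold and higher were 0.54%, 0.679%, 7.73% and 0.843% of all genes. Over all genes, 146 (0.962%) had no overlap and were higher in all 4 comparisons, 27 (0.178%) were past the threshold and higher in all 4, and 26 (0.171%) met both conditions. These shares describe the pool from which the 7 were drawn. Over the whole of E11.5 and E12.5, the 12 Rnf2delta arrays lay above the 12 control arrays for 6 of the 7. The genes were chosen on these same arrays, which favours such a separation, and the share of all genes was not taken for it. Ddx43 was the exception, with 4.14 on the lowest Rnf2delta array, against 4.17 on the highest control array. For Hdac6 the margin was narrow, 3.83 on the lowest Rnf2delta array against 3.81 on the highest control array.

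**Figure D1:**
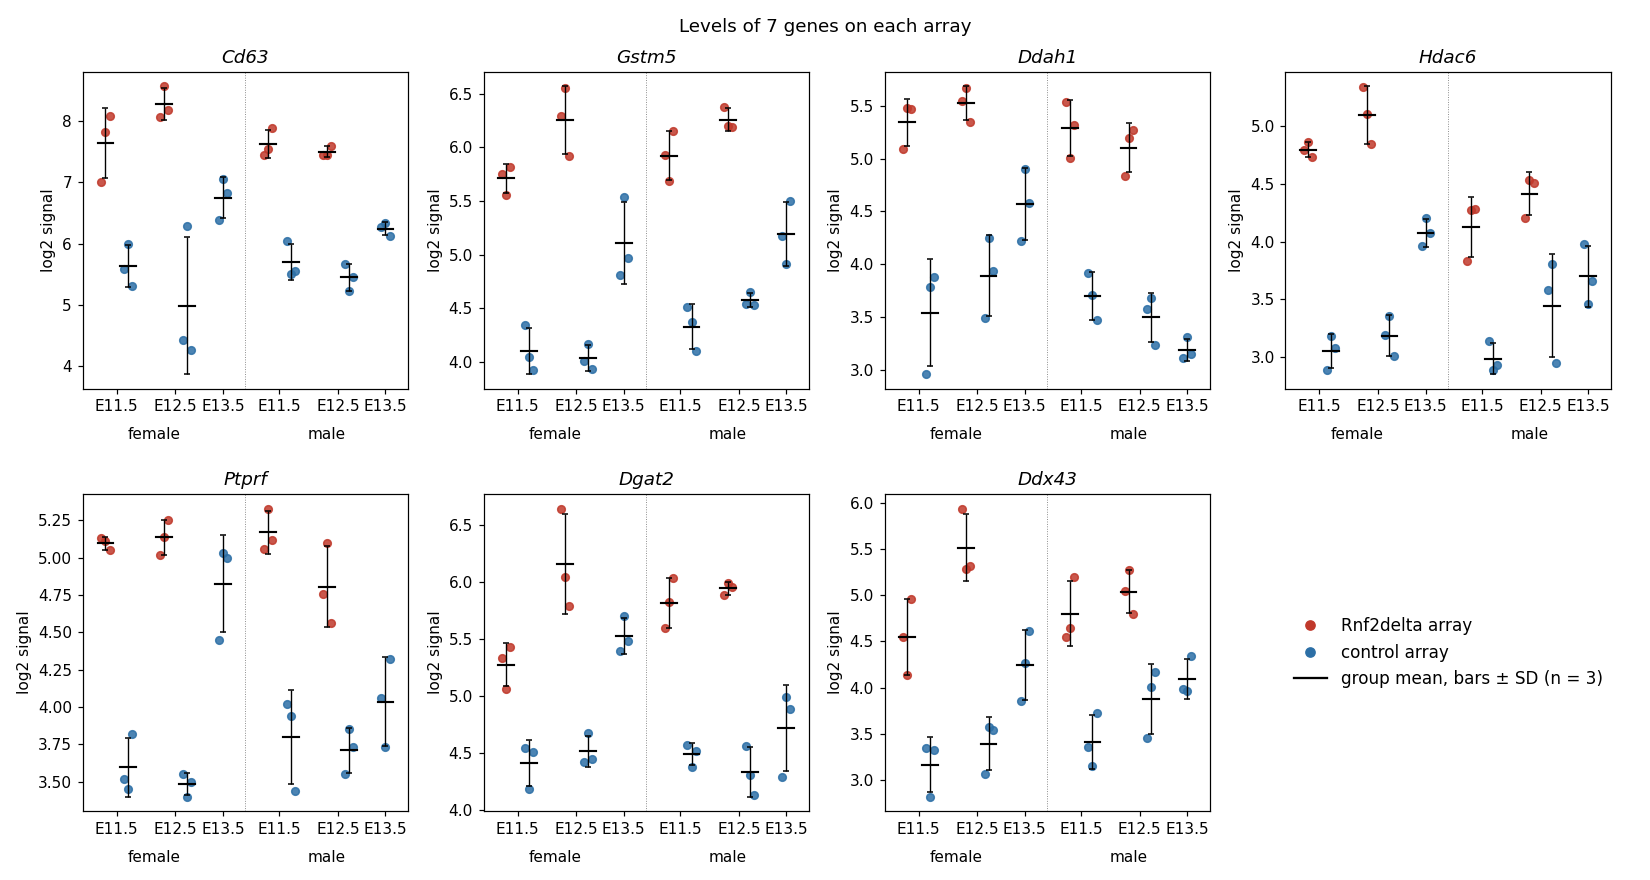
Log2 signal of each of the 7 genes on each of the 30 arrays, by sex and stage, with Rnf2delta arrays in red, control arrays in blue, and the mean ± SD of each group of 3 in black. Within each stage and sex at E11.5 and E12.5 the red points lie above the blue ones, and the control points of E13.5 females lie above those of E11.5 females for each gene.

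Of the membrane proteins, Cd63 showed the largest differences. It had 7.0, 7.83 and 8.09 on the Rnf2delta E11.5 female arrays, against 5.58, 6.0 and 5.31 on the control arrays. In E11.5 males it had 7.44, 7.55 and 7.89 on the Rnf2delta arrays, against 6.04, 5.51 and 5.55 on the control arrays. The groups were separate in both sexes, by 2.01 and 1.93 ± 0.33 (SE), which is 4.02-fold and 3.81-fold. In E12.5 females Cd63 had 8.07, 8.57 and 8.19 on the Rnf2delta arrays, against 4.42, 6.28 and 4.26 on the control arrays. In E12.5 males it had 7.45, 7.45 and 7.60 on the Rnf2delta arrays, against 5.67, 5.23 and 5.45 on the control arrays. The control E12.5 females hold the widest group of the gene: replicate 2 was high and the other 2 were the lowest values of Cd63 in the series. The E12.5 differences were 3.29 in females (9.78-fold) and 2.05 in males (4.14-fold), and without control E12.5 female replicate 2 the female one was 3.94.

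Ptprf had 5.13, 5.11 and 5.05 on the Rnf2delta E11.5 female arrays, against 3.52, 3.45 and 3.82 on the control arrays. The E11.5 males had 5.06, 5.33 and 5.12 on the Rnf2delta arrays, against 4.02, 3.94 and 3.44 on the control arrays. The Rnf2delta arrays were close together and all above 5, and the control arrays were the more scattered. At E12.5 the Rnf2delta females had 5.02, 5.14 and 5.25, against 3.55, 3.40 and 3.50 in control females. The Rnf2delta males had 4.76, 5.10 and 4.56, against 3.55, 3.85 and 3.73 in control males. The differences were 1.5 and 1.37 in E11.5 females and males and 1.65 and 1.10 in E12.5 females and males (SE 0.17), or 2.83-, 2.58-, 3.14- and 2.14-fold.

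Of the metabolic enzymes, Gstm5 had 5.75, 5.56 and 5.82 on the Rnf2delta E11.5 female arrays, against 4.34, 4.04 and 3.92 on the control arrays. For E11.5 males the levels were 5.93, 5.69 and 6.15 on the Rnf2delta arrays, against 4.51, 4.37 and 4.10 on the control arrays. Both genotypes formed tight groups more than 1 unit apart. At E12.5 the Rnf2delta females had 6.29, 6.55 and 5.92, against 4.01, 4.17 and 3.93 in control females. The Rnf2delta males had 6.38, 6.20 and 6.19, against 4.54, 4.65 and 4.53 in control males. The differences were 1.61 and 1.60 at E11.5 and 2.21 and 1.68 at E12.5 in females and males (SE 0.18), or 3.06-, 3.02-, 4.64- and 3.21-fold.

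Ddah1 had 5.09, 5.48 and 5.47 on the Rnf2delta E11.5 female arrays, against 2.96, 3.79 and 3.88 on the control arrays. Male levels at E11.5 were 5.54, 5.01 and 5.32 on the Rnf2delta arrays, against 3.92, 3.71 and 3.47 on the control arrays. Control E11.5 female replicate 1 was the lowest of all 30 arrays for this gene. At E12.5 the Rnf2delta females had 5.55, 5.67 and 5.35, against 3.49, 4.25 and 3.94 in control females. The Rnf2delta males had 4.84, 5.20 and 5.27, against 3.58, 3.68 and 3.24 in control males. The 4 differences of Ddah1 were the most alike of any of the 7, between 1.59 (3.01-fold) in E11.5 males and 1.81 (3.50-fold) in E11.5 females, with SE 0.22.

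Dgat2 had 5.33, 5.06 and 5.43 on the Rnf2delta E11.5 female arrays, against 4.54, 4.18 and 4.51 on the control arrays. In E11.5 males it had 5.59, 5.82 and 6.03 on the Rnf2delta arrays, against 4.57, 4.38 and 4.52 on the control arrays. Both sexes were separated by genotype, the females by 0.87 (1.82-fold), the smallest of the 28 differences, and the males by 1.33 (2.51-fold). At E12.5 the Rnf2delta females had 6.64, 6.04 and 5.79, against 4.42, 4.67 and 4.45 in control females. The Rnf2delta males had 5.88, 5.99 and 5.95, against 4.56, 4.31 and 4.13 in control males. The E12.5 differences were 1.64 in females (3.12-fold) and 1.61 in males (3.04-fold), with SE 0.18.

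Hdac6 had 4.79, 4.86 and 4.73 on the Rnf2delta E11.5 female arrays, against 2.89, 3.18 and 3.08 on the control arrays. In E11.5 males it had 3.83, 4.27 and 4.28 on the Rnf2delta arrays, against 3.14, 2.89 and 2.93 on the control arrays. Control levels of the sexes overlapped, and the Rnf2delta females lay above the Rnf2delta males. At E12.5 the Rnf2delta females had 5.34, 5.10 and 4.84, against 3.19, 3.36 and 3.01 in control females. The Rnf2delta males had 4.20, 4.53 and 4.51, against 3.58, 3.81 and 2.95 in control males. The differences were 1.74 and 1.14 at E11.5 and 1.91 and 0.97 at E12.5 in females and males (SE 0.18), or 3.34-, 2.20-, 3.76- and 1.96-fold.

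Ddx43 had 4.55, 4.14 and 4.96 on the Rnf2delta E11.5 female arrays, against 3.35, 2.82 and 3.32 on the control arrays. In E11.5 males it had 4.55, 4.65 and 5.20 on the Rnf2delta arrays, against 3.36, 3.15 and 3.73 on the control arrays. The groups were separate but each was wide. At E12.5 the Rnf2delta females had 5.94, 5.29 and 5.32, against 3.06, 3.57 and 3.54 in control females. The Rnf2delta males had 5.05, 5.27 and 4.80, against 3.45, 4.01 and 4.17 in control males. The differences were 1.39 in both sexes at E11.5 and 2.13 and 1.16 at E12.5 in females and males (SE 0.24), or 2.61-, 2.62-, 4.37- and 2.24-fold.

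**Figure D2:**
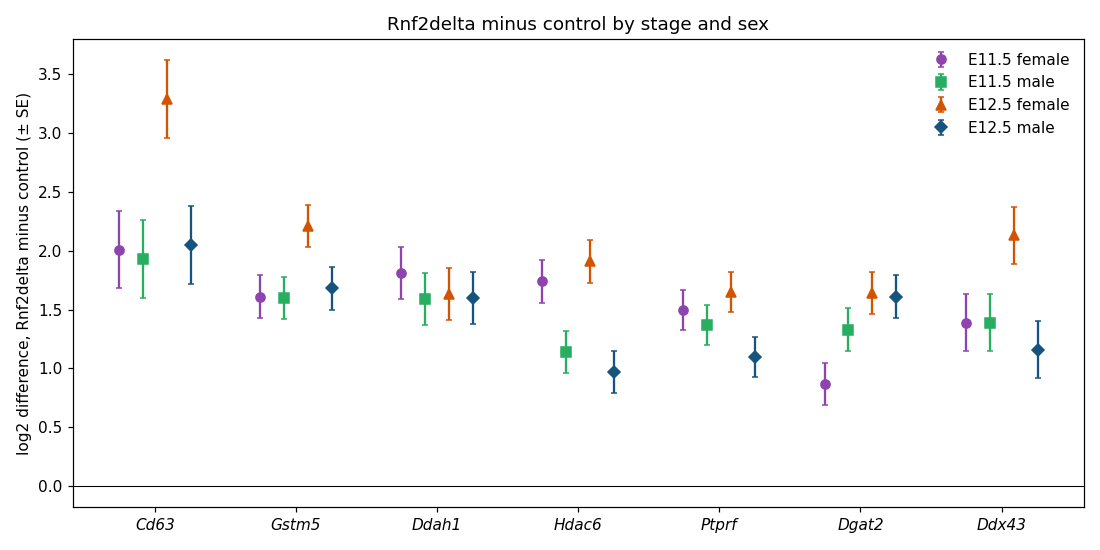
Difference between Rnf2delta and control in log2 signal for each gene at each stage and sex, with the SE of the fit (3 arrays per group). All 28 differences lie above 0, the smallest at 0.87 (Dgat2, E11.5 females) and the largest at 3.29 (Cd63, E12.5 females).

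The genotype effects of the 2 sexes and of the 2 stages were also set against each other. The genes were selected on the same 4 effects, on the same arrays, and a high effect in all 4 limits how far these can differ, so the values are a description and carry no test. At E12.5 the female effect exceeded the male one by 1.24 ± 0.46 (SE) for Cd63, 0.96 ± 0.34 for Ddx43 and 0.94 ± 0.25 for Hdac6, whereas for Ddah1 and Dgat2 it did so by 0.03 and 0.04. In females the E12.5 effect exceeded the E11.5 one by 1.28 ± 0.46 for Cd63 and 0.78 ± 0.26 for Dgat2. For Cd63 these values depended on a single array: without control E12.5 female replicate 2 the excess was 1.89 between the sexes at E12.5 and 1.93 between the stages in females.

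In control development the 7 genes were higher in E13.5 females than at the earlier stages, and 2 of them in E13.5 than in E11.5 males, while none passed the test by E12.5. Between E11.5 and E12.5 none passed in control females, where 18.8% of all genes did, and none passed at an unadjusted p under 0.05, with array weights or when only the compared groups were fitted. The differences ran from -0.65 for Cd63 to 0.35 for Ddah1. Without control E12.5 female replicate 2, Cd63 passed as a fall, by 1.29 (adjusted p = 0.00051). In control males none passed between E11.5 and E12.5, where 2.62% of all genes did. The largest male differences were 0.46 for Hdac6 (adjusted p = 0.18) and 0.46 for Ddx43 (0.37). Hdac6 was the 1 gene under 0.05 unadjusted and the 1 gene called with array weights (adjusted p = 0.025). Over all genes 1241 passed there with array weights, against 397 in the main fit. All control arrays of E11.5 and E12.5 had entered the choice of the genes, so these comparisons are not independent of it.

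In control females all 7 rose between E12.5 and E13.5, where 17% of all genes rose. The differences were 1.77 for Cd63, 1.34 for Ptprf, 1.07 for Gstm5, 1.01 for Dgat2, 0.89 for Hdac6, 0.86 for Ddx43 and 0.67 for Ddah1, with limma adjusted p between 2.6e-06 for Ptprf and 0.025 for Ddah1. For 6 of them the 3 E13.5 arrays lay above the 3 E12.5 arrays, as for 22.2% of all genes, and Ddah1 overlapped (4.22, 4.90 and 4.58 at E13.5, against 3.49, 4.25 and 3.94 at E12.5). The Ddah1 call ended with array weights, with only these groups in the fit, with quantile normalization and without control E12.5 female replicate 1, control E13.5 female replicate 2 or control E13.5 female replicate 3 (adjusted p up to 0.16). The Ddx43 call ended with array weights and without control E12.5 female replicate 1 or control E13.5 female replicate 3 (up to 0.076).

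Over the whole span from E11.5 to E13.5 all 7 rose in control females, where 14.2% of all genes rose, and all 7 had separate arrays, as did 21.6% of all genes. Ptprf had 4.45, 5.03 and 5.0 in E13.5 females, against 3.52, 3.45 and 3.82 in E11.5 females. That is a difference of 1.23 ± 0.17, or 2.35-fold (adjusted p = 3.7e-06). The other 6 lay close together, from 1.01 for Gstm5 (2.01-fold, adjusted p = 1e-04) to 1.12 for Cd63 (2.17-fold, adjusted p = 0.011). Hdac6 differed by 1.03 (adjusted p = 7.2e-05), Dgat2 by 1.11 (3.8e-05), Ddah1 by 1.02 (0.00067) and Ddx43 by 1.09 (0.0011). The Cd63 call ended without control E11.5 female replicate 3 or control E13.5 female replicate 2 (up to 0.062), and the other 6 calls held in all 14 alternatives. The control arrays of E11.5 and E12.5 also entered the choice of the 7 genes, which favours genes low on those arrays, so these rises are not independent of the choice. The rule behind the choice used no E13.5 array, but the 7 were chosen with earlier results of these data known.

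In control males fewer of the 7 moved. As in females, the arrays of E11.5 and E12.5 had entered the choice of the genes. From E12.5 to E13.5 none passed, where 1.1% of all genes did. At an unadjusted p under 0.05 there were 3 (Cd63 at 0.79, Gstm5 at 0.62 and Dgat2 at 0.38). Gstm5 passed with array weights (adjusted p = 0.029), and Cd63 was the 1 gene called when only the compared groups were fitted (adjusted p = 0.019). Over all genes 456 and 242 passed in these fits, against 167 in the main fit. From E11.5 to E13.5, 2 of the 7 passed: Gstm5 rose by 0.87 ± 0.18 (1.82-fold, adjusted p = 0.0017) and Hdac6 by 0.71 ± 0.18 (1.64-fold, adjusted p = 0.0087), where 5.32% of all genes rose. Gstm5 had 5.17, 4.91 and 5.50 in E13.5 males, against 4.51, 4.37 and 4.10 in E11.5 males. Hdac6 had 3.98, 3.46 and 3.66 in E13.5 males, against 3.14, 2.89 and 2.93 in E11.5 males. Both were separate by stage, as were Cd63 and Ddx43, so 4 of the 7 were higher at E13.5 without overlap. The share of all genes with separate arrays is not given for this comparison. The Hdac6 call ended without control E13.5 male replicate 1 (0.071). Ddx43 at 0.68 (adjusted p = 0.067), Cd63 at 0.55 (0.34), Ptprf at 0.24 and Dgat2 at 0.23 did not pass. Ddah1 was the 1 gene of the 7 with a lower mean in E13.5 than in E11.5 males (-0.51 ± 0.22, adjusted p = 0.14), and its arrays did not overlap: 3.11, 3.31 and 3.15 at E13.5, against 3.92, 3.71 and 3.47 at E11.5. In a fit of just the compared groups, 5 of the 7 passed, Ddah1 among them (adjusted p = 0.025). Over all genes 2497 passed in that fit, against 1664 in the main fit.

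**Figure D3:**
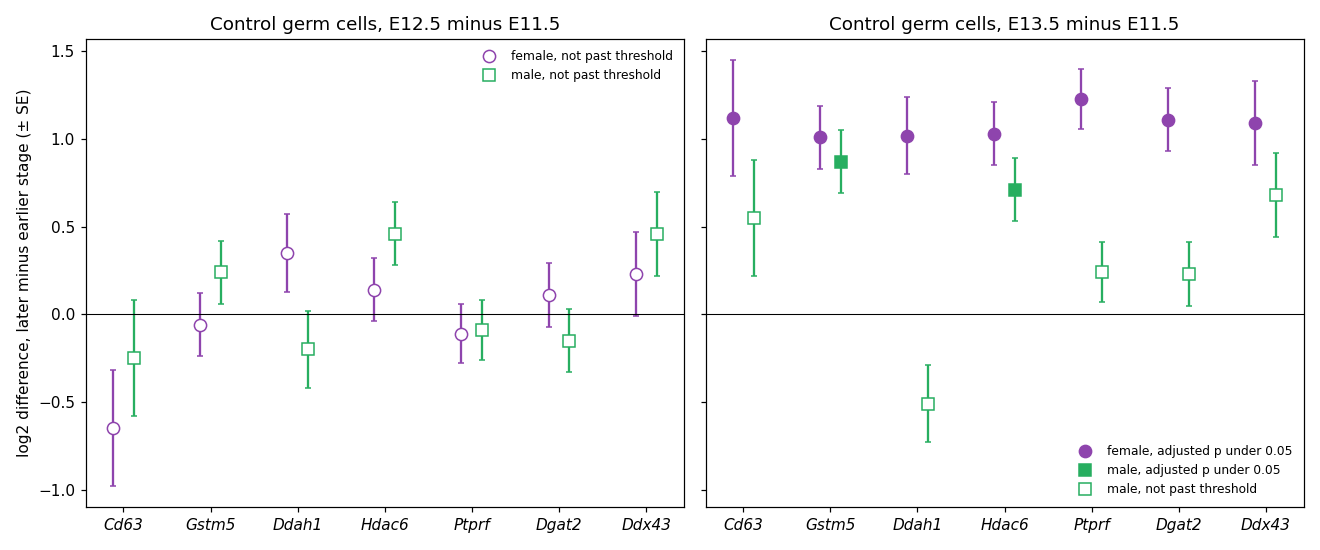
Change of each gene in control germ cells from E11.5 to E12.5 (left) and from E11.5 to E13.5 (right) in log2 signal ± SE (3 arrays per group), females as circles and males as squares. No marker is filled on the left, while on the right all 7 female values are filled (limma adjusted p under 0.05) and lie between 1.01 and 1.23, with the male values between -0.51 for Ddah1 and 0.87 for Gstm5.

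The sexes of control cells were compared directly. The control arrays of E11.5 and E12.5 had entered the choice of the genes, so the results at these 2 stages are not independent of it. At E11.5 none of the 7 differed, where 0.25% of all genes did. None was under 0.05 unadjusted, and none passed with array weights or when only the compared groups were fitted. At E12.5 Gstm5 was lower in females by 0.53 (4.01, 4.17 and 3.93 in females, against 4.54, 4.65 and 4.53 in males, adjusted p = 0.036), where 14.7% of all genes were lower in females. That call ended in 8 of 13 alternatives (adjusted p up to 0.12). At E13.5, 3 of the 7 were higher in females, where 7.91% of all genes were. The rule for the genes used no E13.5 array, but the 7 were chosen with earlier results of these data known. Ddah1 had 4.22, 4.90 and 4.58 in females, against 3.11, 3.31 and 3.15 in males. It was 1.38 ± 0.22 higher in females (2.60-fold, adjusted p = 4.1e-05). Dgat2 had 5.39, 5.70 and 5.48 in females, against 4.29, 4.99 and 4.88 in males, a difference of 0.80 ± 0.18 (1.74-fold, adjusted p = 0.0026). Ptprf had 4.45, 5.03 and 5.0 in females, against 4.06, 3.73 and 4.32 in males, a difference of 0.79 ± 0.17 (1.73-fold, adjusted p = 0.0015). The female arrays lay above the male ones for these 3 genes and for Cd63, as for 17.6% of all genes, and the calls held in all 14 alternatives. Cd63 at 0.51 (adjusted p = 0.34), Hdac6 at 0.38 (0.17), Ddx43 at 0.15 and Gstm5 at -0.09 did not pass (Cd63 had 6.38, 7.05 and 6.82 in females, against 6.27, 6.33 and 6.13 in males).

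Whether the course in females differed from that in males was tested as an interaction. Each test used control arrays of E11.5 or E12.5, which had entered the choice of the genes, so none is independent of it. The test from E11.5 to E12.5 used no other arrays. From E11.5 to E12.5 none of the 7 passed, where 3.34% of all genes did. None was under 0.05 unadjusted or passed with array weights or when only the compared groups were fitted. From E12.5 to E13.5 the female rise exceeded the male one for Ptprf, by 1.02 ± 0.24 (adjusted p = 0.011), where 5.07% of all genes had a larger female change. From E11.5 to E13.5 it did so for Ddah1, by 1.54 ± 0.31 (adjusted p = 0.0028), for Ptprf, by 1.0 ± 0.24 (0.014), and for Dgat2, by 0.88 ± 0.26 (0.044), where 2.96% of all genes had a larger female change. Ddah1 held in all 20 alternatives and Ptprf in 18 of 20, ending without control E13.5 male replicate 2 or control E13.5 female replicate 2 (adjusted p up to 0.054), whereas Dgat2 passed in 9 of 20 (up to 0.15). The female values of the other 4 genes exceeded the male ones by 0.14 for Gstm5, 0.32 for Hdac6, 0.41 for Ddx43 and 0.57 for Cd63, with adjusted p of 0.59 or more.

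Levels on the Rnf2delta arrays were then set beside the later control stage, as a description. The 7 genes were chosen for being high on these Rnf2delta arrays. That favours an excess, so the shares of all genes below are no measure of what is particular to the 7. In females the Rnf2delta E12.5 arrays exceeded the control E13.5 arrays without overlap for 6 of the 7 genes, as for 9.43% of all genes. The excess was 1.52 for Cd63, 1.27 for Ddx43, 1.14 for Gstm5, 1.02 for Hdac6, 0.96 for Ddah1 and 0.63 for Dgat2. Ptprf overlapped, at 5.02, 5.14 and 5.25 in Rnf2delta E12.5 females, against 4.45, 5.03 and 5.0 in control E13.5 females, a difference of 0.31. In males all 7 Rnf2delta E12.5 groups lay above the control E13.5 groups, as did 9.84% of all genes, by 0.71 for Hdac6 up to 1.92 for Ddah1. At E11.5 the Rnf2delta females were already above control E13.5 females for 4 genes (Gstm5, Ddah1, Hdac6 and Ptprf, 21.6% of all genes), while Cd63, Ddx43 and Dgat2 overlapped. Dgat2 was the 1 gene with a lower mean in Rnf2delta E11.5 females than in control E13.5 females (5.33, 5.06 and 5.43, against 5.39, 5.70 and 5.48, a difference of -0.25). The Rnf2delta E11.5 males lay above the control E13.5 males for 6 genes (16.7% of all genes), with Hdac6 overlapping.

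Ordered by group mean, the 4 Rnf2delta groups were the top 4 of the 10 for Cd63, Gstm5, Ddah1, Hdac6 and Ddx43. The choice of the genes favours this order, since it used all groups but those of E13.5. The share of all genes with this order was not taken. The means of Cd63, from lowest to highest, were 4.99 ± 1.12 (SD, n = 3 in each group) in control E12.5 females, 5.45 ± 0.22 in control E12.5 males, 5.63 ± 0.35 and 5.70 ± 0.29 in control E11.5 females and males, 6.24 ± 0.10 and 6.75 ± 0.34 in control E13.5 males and females, then 7.50 ± 0.08, 7.63 ± 0.23, 7.64 ± 0.57 and 8.28 ± 0.26 in Rnf2delta E12.5 males, E11.5 males, E11.5 females and E12.5 females. The 4 lowest Cd63 groups overlapped from neighbour to neighbour, as did the 4 Rnf2delta groups. For Ptprf, control E13.5 females (4.83 ± 0.32) ranked above Rnf2delta E12.5 males (4.81 ± 0.27), and for Dgat2 they (5.52 ± 0.16) ranked above Rnf2delta E11.5 females (5.27 ± 0.19), with overlapping arrays in both cases. Within groups, the deviations of the arrays from their group mean were weakly alike between the 7 genes: over 30 arrays r ran from -0.08 to 0.49 in the 21 pairs (median 0.21, 19 above 0), where all pairs share the same amplified samples.

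Genes with the most similar course were sought by the Pearson correlation of the 10 group means with the mean standardized course of the 7. The 5 highest were P4ha2 (r = 0.981), Plod2 (0.965), Stat5b (0.958), Ethe1 (0.957) and Dab2ip (0.957). A high r says nothing of the size of a change: the group means of Stat5b ran only from 2.22 to 2.67. The groups include the Rnf2delta arrays on which the 7 were chosen. P4ha2, a subunit of the enzyme that hydroxylates prolines in collagen, averaged 4.41 ± 0.05 in Rnf2delta E12.5 females, against 3.14 ± 0.45 in control E12.5 females, and 3.66 ± 0.19 in control E13.5 females. For single members the closest genes were Slc43a3 for Cd63 (0.969), Clstn1 for Gstm5 (0.979), P4ha2 for Ddah1 (0.963), Ube2f for Hdac6 (0.968), Evl for Ptprf (0.963), Tex101 for Dgat2 (0.983) and Taf9b for Ddx43 (0.960). The group means of Ube2f ran only from 3.50 to 3.81. Of the genes of similar course, only P4ha2 and Clstn1 were past the threshold and higher in all 4 genotype comparisons. Tex101, a testis antigen of germ cells, averaged 6.01 ± 0.83 in Rnf2delta E12.5 females, against 3.05 ± 0.08 in control E12.5 females, and 4.26 ± 0.55 in control E13.5 females (SD, n = 3 each).

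Relatives of the 7 genes were listed by family or pathway, 195 genes in 7 lists, of which 181 were measured and 166 tested. The lists were drawn up by family, with earlier results of these data known, so their counts are no independent evidence of a direction. Ptprs and Gsto1, which they hold, are among the 26 genes that were past the threshold and higher, without overlap, in all 4 comparisons. Of the 166, 4 (2.41%) rose in Rnf2delta cells of each sex at E11.5, 23 (13.9%) in E12.5 females and 4 (2.41%) in E12.5 males, beside the 0.54%, 0.679%, 7.73% and 0.843% of all genes given above. By the same test 0 fell in any of the 4, where 0.0132% and 0.0395% of all genes fell at E11.5 in females and males, and 2.16% and 0.119% at E12.5. The medians of the relatives were 0.091, 0.067, 0.124 and 0.021. The E12.5 female count was 6 with array weights and 0 with only the 2 groups in the fit. Over all genes 254 and 54 passed in these fits, against 1502 in the main fit. The E12.5 male count was 6 without Rnf2delta E12.5 male replicate 3.

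The closest relatives were Cd9, Cd81, Gstm1, Ddah2, Hdac10, Ptprs, Ptprd, Dgat1 and Ddx4, with Ddx53 not analysed here. Of these 9, Ptprs rose in all 4 comparisons, Ddah2 and Dgat1 rose in E12.5 females, and 6 passed in none.

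Among tetraspanins (27 tested), 1 rose in each sex at E11.5 (3.7%), 7 in E12.5 females (25.9%) and 0 in E12.5 males. Of all genes 0.54% and 0.679% rose at E11.5, and 7.73% and 0.843% at E12.5, in females and males. Tspan17 rose by 1.48 ± 0.21 in Rnf2delta E11.5 females (2.80-fold, adjusted p = 0.00018, held in all 14 alternatives), and by 0.67 in E12.5 females (0.041). Tspan5, like Tspan17 a partner of the membrane protease Adam10, rose by 0.94 in E11.5 males (0.013) and by 0.81 in E12.5 females (0.0089). Tspan6 rose by 0.72 in E12.5 females (0.0076). Cd9 and Cd81, tetraspanins of the egg surface, differed by 0.23 to 0.51 and by 0.34 to 0.73, with no adjusted p under 0.05.

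Among receptor-type phosphatases and the liprins that bind the LAR family (15 tested), 2 and 1 rose at E11.5 and 4 and 1 at E12.5 in females and males. These are 13.3%, 6.67%, 26.7% and 6.67% of the list, beside the shares of all genes given for the tetraspanins. Ptprs, like Ptprf a LAR family receptor, rose in all 4, by 0.85 in E11.5 females (adjusted p = 0.034), 1.09 in E11.5 males (0.0027), 0.81 in E12.5 females (0.0081) and 0.92 in E12.5 males (0.011). Its E12.5 levels were 4.52 ± 0.01 in Rnf2delta females and 4.27 ± 0.14 in Rnf2delta males, against 3.71 ± 0.59 in control females and 3.35 ± 0.03 in control males (SD, n = 3 each). The call held in all 14 alternatives in E11.5 males, in 8 of 14 in E11.5 females, in 10 of 13 in E12.5 females and in 12 of 14 in E12.5 males, where it ended without control E12.5 male replicate 1 or Rnf2delta E12.5 male replicate 2 (0.07). Ptprd, the other LAR family receptor, differed by -0.05 to 0.14 and passed nowhere. Its group means were only 2.16 to 2.34, below the array medians of 2.52 to 2.66, so a change could be missed. Ptpru rose by 1.01 in E11.5 females (0.00046), and Ptprj, a receptor-type phosphatase outside the LAR family, by 1.73 in E12.5 females (0.00032). The Ptprj call ended with only the 2 groups in the fit (0.10).

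Among glutathione transferases and enzymes of glutathione synthesis (24 tested), 1 rose in each comparison (4.17%) except that of E12.5 males, where 2 did (8.33%). In E12.5 females that share lay below the 7.73% of all genes. Gsto1, an omega class transferase, rose in all 4 comparisons, by 0.86 in E11.5 females (adjusted p = 0.043), 0.96 in E11.5 males (0.014), 0.96 in E12.5 females (0.0031) and 1.64 in E12.5 males (2.4e-05). The E11.5 female call passed in 5 of 14 alternatives, and the E12.5 male call in all 14. In E11.5 males both Gsto1 and Tspan5 lost their call without control replicate 1 or 2 or Rnf2delta replicate 2 or 3 (adjusted p up to 0.16). Gstp1, the pi class transferase, rose by 1.32 in E12.5 males (5e-04). Gstm1, of the same mu class as Gstm5, differed by -0.06 to 0.52 and passed nowhere (lowest adjusted p 0.28).

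In the list of arginine methylation and nitric oxide genes (14 tested), 1 gene rose, in E12.5 females alone (7.14%, beside 7.73% of all genes). It was Ddah2, the paralog of Ddah1, with 0.70 ± 0.18 (adjusted p = 0.014). In the other 3 comparisons Ddah2 differed by 0.54 to 0.67 with adjusted p of 0.10 to 0.31. Among lysine deacetylases and the tubulin acetyltransferase Atat1 (18 tested), 2 rose in E12.5 females (11.1%, beside 7.73% of all genes) and 0 in the others. These were Sirt2, like Hdac6 a tubulin deacetylase, by 0.57 (0.005) and Hdac2 by 0.49 (0.015). Hdac10, the deacetylase closest to Hdac6, differed by 0.03 to 0.25 and passed nowhere. Its group means were only 2.4 to 2.74, near the array medians of 2.52 to 2.66, so a change could be missed.

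Among genes of triglyceride synthesis and lipid droplets (33 tested), 4 rose in E12.5 females (12.1%, beside 7.73% of all genes) and 0 in the others. Dgat1, which catalyses the same reaction as Dgat2, was among them, by 0.77 ± 0.18 (adjusted p = 0.0063), and differed by -0.16 to 0.14 elsewhere. The other 3 were Agpat2, an acyltransferase earlier in the pathway, by 0.95 (0.00053), Scd1, a fatty acid desaturase, by 0.90 (0.033), and Acsl4, which activates fatty acids, by 0.82 (3.4e-05). Among DEAD-box helicases (35 tested), 0 and 1 rose at E11.5 and 4 and 1 at E12.5 in females and males. The 4 are 11.4% of the list, beside 7.73% of all genes, and the 1 of each male comparison is 2.86%, beside 0.679% and 0.843%. Ddx25, a helicase of male germ cells, rose by 0.85 in E11.5 males (0.046), 1.05 in E12.5 females (0.0016) and 1.02 in E12.5 males (0.0082), and passed in 4 of 14, 12 of 13 and 11 of 14 alternatives. In E11.5 males, where same-numbered arrays shared deviations in every replicate, the Ddx25 call ended with the replicate block (adjusted p = 0.055). The call therefore rests on the fit without pairs. Ddx47 and Ddx6 rose by 0.93 (0.00066) and 0.76 (0.0068) in E12.5 females. Ddx4, the germ cell helicase Vasa, differed by 0.36 to 0.78 and passed nowhere (lowest adjusted p 0.15). Each E12.5 female call of a relative named here ended with only the 2 groups in the fit, and those of Tspan17, Tspan5, Tspan6, Ptprs, Ddah2, Sirt2, Hdac2, Dgat1, Scd1 and Ddx6 also ended with array weights.

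**Figure D4:**
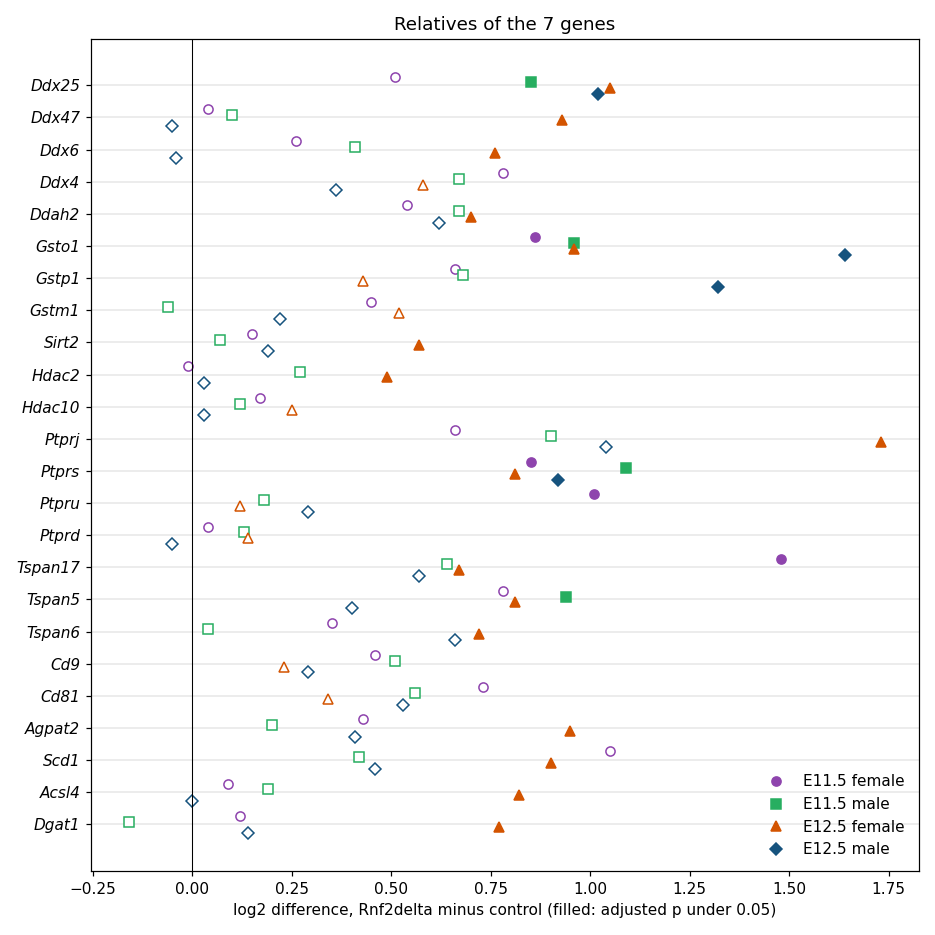
Difference between Rnf2delta and control in log2 signal for the named relatives of the 7 genes in the 4 comparisons. Symbols are filled where the limma adjusted p was under 0.05 in the fit without the replicate block. Ptprs and Gsto1 are filled in all 4 comparisons, and most other filled symbols are those of E12.5 females.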

How the data were processed

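Gene expression in sorted mouse primordial germ cells was measured on 30 Affymetrix arrays (10 groups of 3). The values deposited by the authors are log2 signals of 34760 probe sets per array. Per the submitters' processing notes, they worked in R 2.15 with affy 1.36. How background was corrected and probes were combined, and on which build, is not given in the sources used here. The array medians lay between 2.52 and 2.66, so the deposited values had been brought to a common scale. Signals near the lower end compress differences, and precision is limited by how many arrays there are. No 2 arrays held identical values.

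Probe sets were named from the platform annotation and symbols updated by Entrez identifier with the RefSeq gene table of GRCm38.p6: 21640 had 1 symbol (21553 matched, 87 kept as annotated), 1321 had several and 11799 none listed. For 954 genes with several probe sets the probe set of highest mean signal stood for the gene. Of 19937 genes, 15180 were tested, those with at least 3 arrays above the 40th percentile of their own array, and 4757 were left out.

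A single linear model over all arrays, with a mean for each group and equal weights, was fitted by limma 3.58.1 in R 4.3.3, and all comparisons were contrasts of it (20 residual degrees of freedom), two-sided, with Benjamini-Hochberg adjustment over the 15180 genes and a threshold of 0.05. SE is that of the fit. The script was tested on simulated data with 200 changed genes. The members, the 7 lists of relatives and the marker lists were chosen with earlier results of these data known. Named are the 7 genes, Rnf2 and Ring1, the closest relatives, up to 3 genes of each list past the threshold with separate arrays in at least 1 genotype comparison (largest differences first), and the genes with the most similar group means (5 for the mean course, 1 for each gene). The other genes past the threshold and higher in all 4 genotype comparisons, being over 15, were counted and not listed; some are named as relatives or as genes of similar course.

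Same-numbered arrays were checked for shared deviations in 11 comparisons. Every correlation was over 0.1 in 1 of them, Rnf2delta against control in E11.5 males (0.16, 0.124 and 0.104). For Rnf2delta against control in E12.5 males the correlations were 0.184, 0.096 and 0.293. The calls and counts given come from the fit without pairs, and the replicate block is an alternative to it. The range over all was -0.14 to 0.293. Alternatives were array weights, only the compared groups in the fit, no filter, quantile normalization, the mean of all probe sets, an intensity trend, the replicate number as a block, and leaving out the 6 E12.5 female arrays or single arrays. Promoter sequences are RefSeq's for GRCm38.p6. Figures were drawn with matplotlib 3.10.9 in Python 3.11.15.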

Additional observations from a re-analysis of the deposited data

Results flagged for a closer look

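In control cells the change from E12.5 to E13.5 in females differed from that in males for Ptprf, by 1.02 ± 0.24 on the log2 scale (limma interaction, adjusted p = 0.011, higher on 3 of 3 E13.5 female arrays than on any E12.5 female array). The call held in all 19 alternatives, with values between 0.86 and 1.21. The E12.5 control arrays of both sexes had entered the choice of the genes.

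From E11.5 to E13.5 the female change exceeded the male one for Ddah1 by 1.54 ± 0.31 (adjusted p = 0.0028; alternatives 1.25 to 1.71, all past the threshold). Its 3 E13.5 female arrays lay above all E11.5 female arrays, and its 3 E13.5 male arrays lay below all E11.5 male arrays. For Ptprf the excess was 1.0 ± 0.24 (adjusted p = 0.014; past the threshold in 18 of 20 alternatives, adjusted p up to 0.054) and for Dgat2 0.88 ± 0.26 (adjusted p = 0.044; past it in 9 of 20, up to 0.15, and not with the replicate block). Ptprf and Dgat2 were higher on 3 of 3 E13.5 female arrays than on any E11.5 female array, while their male arrays overlapped between the stages. The E11.5 control arrays of both sexes had entered the choice of the genes.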

How the results depend on the processing

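Of 24 main results (medians and counts), 11 kept their value within the spread or their count within 1.5 times under every alternative run. Of 112 single comparisons of the 7 genes, 24 were past the threshold, and 17 of these stayed so under every alternative. Of the 88 others 72 never passed. The 88 include 28 between genotype effects, which the choice of the genes limits and which are read as no test here. A sign changed in 20 of the 112, in none of the 24. All 56 differences from the controls of the 7 genes stayed within 1 SD. The cause of the changes below was not tested.

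With array weights, 8 relatives passed in E11.5 females, 12 in E11.5 males, 6 in E12.5 females and 9 in E12.5 males. Over all genes 157, 344, 254 and 285 passed in the same order, against 84, 109, 1502 and 146 in the main fit. In control males 1 member passed between E11.5 and E12.5, where 1241 of all genes did, and 1 between E12.5 and E13.5, where 456 did. Between E12.5 control sexes 0 members differed, where 1876 of all genes did. When only the compared groups were fitted, 0 relatives passed in E12.5 females, where 54 of all genes did. In control males 1 member passed between E12.5 and E13.5 (242 of all genes) and 5 between E11.5 and E13.5 (2497 of all genes). Between E12.5 control sexes 0 members differed, where 1150 of all genes did. With quantile normalization, 2 relatives passed in E11.5 females (68 of all genes) and 0 members differed between E12.5 control sexes (2608 of all genes). Without the 6 E12.5 female arrays, 7 relatives passed in each of E11.5 females, E11.5 males and E12.5 males, where 151, 228 and 253 of all genes did.

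Leaving out single arrays gave 2 to 4 relatives in E11.5 females, 1 to 3 in E11.5 males, 14 to 28 in E12.5 females (14 without Rnf2delta replicate 1) and 2 to 6 in E12.5 males (2 without Rnf2delta replicate 2). It gave 0 to 1 members in control females between E11.5 and E12.5, 1 to 2 in control males between E11.5 and E13.5, and 0 to 2 between E12.5 sexes. For female against male development it gave 1 to 3 members to E13.5 from either earlier stage. All-gene counts were not taken for the runs without single arrays.

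With the replicate block, the sex difference of control development from E12.5 to E13.5 passed for 2 members (Ddah1 added) in place of 1. It moved no other count of members or relatives by over 1.5 times. In E11.5 males, where same-numbered arrays shared deviations in every replicate, 3 relatives rose with the block, against 4 without it (Ddx25 lost). All-gene counts in E12.5 females fell to 254 with array weights and 54 with only the 2 groups in the fit, against 1502.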
